A study of Mus musculus with 9 samples.

Results

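The footprints described here are border calls inside peaks of the mineralocorticoid receptor (MR) after corticosterone (CORT) in mouse N2A neuroblastoma cells. Each marks a stretch of DNA that MR may have shielded from λ-exonuclease, which was not tested for single footprints. ChIP-nexus is a chromatin immunoprecipitation in which the exonuclease trims each DNA strand until it meets a crosslinked protein, and the program MACE joins a stop on each strand into a border pair, here called a footprint when it lay in an MR peak. The footprints were chosen by the authors' peak and border calls, so their MACE p-values, sizes, distances to the summit and peak strengths are given as description without a test. Of the 3285 MR border pairs listed after CORT, 1719 overlapped an MR peak of the MACS2 list by at least 1 bp. Of these, 65 also overlapped a border pair of the input chromatin and were left out, so 1654 footprints remained, or 50.4% of the MR list. Another 1202 MR border pairs lay outside every MR peak and off the input pairs, and they serve as the comparison. The 9 border pair lists of the series held 25244 pairs in all.

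The cells were grown in charcoal-stripped serum and carried transiently transfected EGFP-GR and mCherry-MR, and MR was precipitated through mCherry. The footprints come from the MR CORT sample (100 nM CORT for 20 minutes). They were set against MR washout (the same CORT treatment, then washing and 40 minutes without steroid), MR vehicle, GR after each treatment, and input chromatin without precipitation. Each condition had 3 replicates that the authors combined, with 1 list of peaks and 1 of border pairs per precipitated condition, so no value has a replicate error. Each test compares sets of regions within the single MR CORT list, with regions as units, and tests no treatment. The receptors were tagged and expressed from plasmids in a line that the study describes as lacking its own MR, and lists of regions cannot show which cells they came from. The deposited description names mouse receptors, whereas the methods of the study name rat ones. The depth of the libraries is not known from the lists.

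MR is a nuclear receptor that binds aldosterone and, with high affinity, glucocorticoids such as CORT. The glucocorticoid receptor (GR) has a DNA-binding domain of nearly the same sequence, and both receptors recognize the glucocorticoid response element (GRE), an inverted repeat that holds a receptor dimer. In limbic neurons, MR is known for binding CORT at resting concentrations while GR binds at stress concentrations. A GRE was counted here wherever either strand matched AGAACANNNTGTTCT at all but 3 or fewer of the 12 fixed positions.

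The sequences that follow, from the GRCm38 assembly and written 5′ to 3′ on its forward strand, are the 4 footprints with an exact GRE within 20 bp of the midpoint. Each line runs 10 bp past the footprint to each side, or to the end of the GRE where that was farther, and capitals mark the GRE.
Hs3st5 intron, chr10:36557457-36557508: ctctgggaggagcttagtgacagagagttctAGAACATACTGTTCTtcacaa
Intergenic, chr10:59974271-59974307: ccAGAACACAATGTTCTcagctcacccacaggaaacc
P4ha2, exon of a non-coding transcript, chr11:54113159-54113259: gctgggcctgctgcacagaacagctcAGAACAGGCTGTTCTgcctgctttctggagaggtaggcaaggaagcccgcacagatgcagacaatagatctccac
Cep41 intron, chr6:30664734-30664802: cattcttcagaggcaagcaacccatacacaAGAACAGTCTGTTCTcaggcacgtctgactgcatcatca

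The next set shows footprints at known glucocorticoid-induced genes and at genes that the project examined individually. Per1 and Cdkn1a had a GRE within 20 bp of the footprint's midpoint, as had 1 of the Ddc footprints. The Fkbp5 footprint lay beside its GRE, from base 42 of the line onwards. The Nfkbia footprint had no GRE within 20 bp.
Per1 intron, chr11:69099380-69099430: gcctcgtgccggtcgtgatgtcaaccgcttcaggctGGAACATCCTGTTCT
Cdkn1a intron, chr17:29094683-29094746: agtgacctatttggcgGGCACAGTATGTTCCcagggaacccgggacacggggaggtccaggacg
Ddc intron, chr11:11844600-11844667: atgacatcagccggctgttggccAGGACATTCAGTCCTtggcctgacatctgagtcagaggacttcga
Fkbp5 intron, chr17:28420321-28420459: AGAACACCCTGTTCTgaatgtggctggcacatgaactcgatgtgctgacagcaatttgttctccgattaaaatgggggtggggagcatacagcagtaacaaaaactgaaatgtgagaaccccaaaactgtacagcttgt
Nfkbia intron, chr12:55491951-55492005: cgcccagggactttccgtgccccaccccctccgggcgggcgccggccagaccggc

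The footprints were not spread evenly over the chromosomes, and this bears on every count that follows. Of the 14638 MR CORT peaks, 1460 (9.97%) held a footprint. On chromosomes 1, 2 and 10 to 19, 1194 of 8379 peaks (14.2%) did, with single chromosomes between 9.32% and 16.7%. On chromosomes 3 to 9, X and Y, 258 of 6186 peaks (4.17%) did, and apart from chromosome Y, which had 5 peaks, no chromosome there exceeded 6.37%. The step falls after chromosome 2 in the alphabetical order in which the list is written. The peaks themselves did not differ in this way, with a median −log10 p of 9.17 in both chromosome groups. The border pairs of MR washout showed no such step, since 9.64% of MR washout peaks held a washout pair in the first group and 8.21% in the second. Whether a step in processing had a part in this was not tested. Within the first and the second group, the median size of footprints was 38 and 36 bp and the median distance to the summit 18 bp in both. An MR washout peak overlapped 55.8% and 67.3% of them, a GR CORT peak 77.6% and 84.2%, and a GRE lay at 24.3% and 22.7%. The peaks that held them had a median −log10 p of 13.7 and 18.8.

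**Figure D1:**
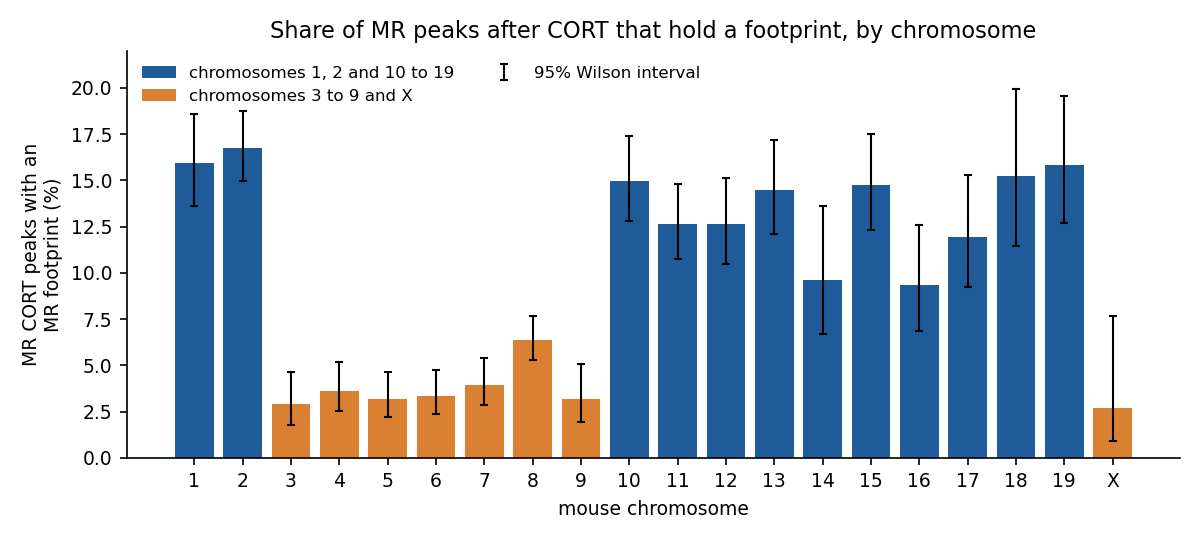
Percentage of MR CORT peaks (y axis, %) that held a footprint on each mouse chromosome (x axis), with 95% Wilson intervals as bars and the chromosome groups in different colors. Chromosomes 1, 2 and 10 to 19 lie between 9.32% and 16.7%, and chromosomes 3 to 9 and X lie at or below 6.37%. Chromosome Y, with 5 peaks, is not drawn.

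Footprints sat mostly in the stronger peaks, which belongs to how they were chosen and is given as description. Peaks with a footprint had a median −log10 p of 14.9, from 4.83 to 69.9, and were 130 bp wide at the median. Peaks without any border pair had a median of 8.98, from 4.56 to 42.4, and a median width of 59 bp. When all MR CORT peaks were put into 5 equal groups by −log10 p, 1.98% of the weakest group and 29.4% of the strongest held a footprint. In the strongest group the share was 41.1% on chromosomes 1, 2 and 10 to 19 and 15.1% on the others.

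The footprints were short and centered on the summits. Their size had a median of 38 bp, a middle range from 21 to 58 bp, and extremes of 1 and 224 bp. The pairs outside peaks had a median of 39 bp and a middle range from 24 to 63 bp. Of the footprints, 151 (9.13%) were at most 10 bp, 241 (14.6%) were between 11 and 20 bp, 248 between 21 and 30 bp, 254 between 31 and 40 bp, 376 (22.7%) between 41 and 60 bp, and 345 (20.9%) between 61 and 100 bp. The other 39 were longer than 100 bp, and 37 of those carried MACE's label GSB. That label stood on 1425 footprints, while 132 were labeled SFB and 97 SRB. The median size was 37 bp for GSB, 44 bp for SFB and 38 bp for SRB. The p-value that MACE gave had a median of 0.00175 for GSB, 0.0136 for SFB and 0.0152 for SRB.

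The midpoint of a footprint lay a median of 18 bp from the summit of its peak, and the median signed distance was 0.5 bp. Footprints lay evenly around the summit, with 803 before it and 835 after it on the forward strand and 16 exactly on it. Within 10 bp of the summit lay 581 midpoints (35.1%), within 50 bp 1310 (79.2%), and within 100 bp 1532 (92.6%). The summit base itself was inside 867 footprints (52.4%). Footprints of 21 to 30 bp were closest, with a median distance of 11 bp, and those of 61 to 100 bp lay at 37.5 bp.

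**Figure D2:**
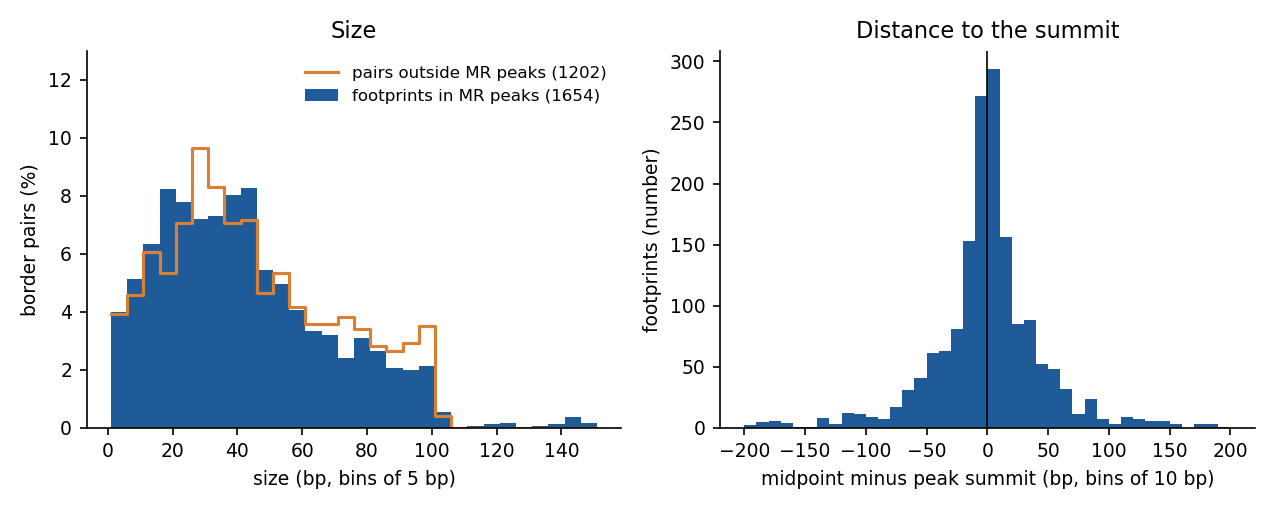
Left, size in bp (x axis, bins of 5 bp) as a percentage of border pairs (y axis) for the 1654 footprints and for the 1202 pairs outside MR peaks. Right, number of footprints (y axis) by the distance of the midpoint from the peak summit (x axis, bins of 10 bp), which piles up around 0. The longest footprints and the farthest midpoints are not drawn.

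Most peaks held a single footprint. There were 1276 peaks (87.4%) with 1, 166 with 2 and 18 with 3, and 8 footprints overlapped 2 peaks. In the peaks with 2, the midpoints were a median of 40.8 bp apart (middle range 17.8 to 91.2 bp), and in 86 of them the footprints overlapped each other. In all, 210 footprints overlapped another footprint. Footprints of 1 peak share their reads and are not independent sites, so tests on peaks are given beside tests on footprints where both were run. The tests on washout pairs and on GREs at footprints have footprints as units. Of the 5 peaks with 3 footprints and the highest −log10 p, 4 were intergenic and 1 lay in an intron of Adamtsl2, which encodes a secreted matrix protein. That Adamtsl2 peak (chr2:27088317-27088674, −log10 p 44.1) held footprints of 37, 49 and 121 bp, and an MR washout peak with a −log10 p of 22.9 lay over all of them. Another of the 5 (chr12:55473723-55474523, −log10 p 34.2) held the footprint farthest from a summit, at 598 bp.

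The rule of 1 bp left a narrow margin on either side. Of the footprints, 1273 lay whole inside their peak, 1520 had their midpoint in it, and 11 shared a single base with it. The footprint at chr15:72818000-72818038, for example, shared 1 bp with a peak ending at 72818000 (−log10 p 7.54), and the footprint at chr2:75783255-75783271 shared 1 bp with a peak starting there at 75783271 (−log10 p 9.17). Among the pairs outside peaks, 20 lay within 10 bp of a peak, 82 within 50 bp and 113 within 100 bp. The nearest, chr1:179854451-179854466, directly adjoined a peak starting at 179854467 with a −log10 p of 12.4.

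Sequence was not used to choose the footprints, and GREs were frequent in them. A GRE had its center within 20 bp of the midpoint in 395 of the 1646 footprints on chromosomes 1 to 19, X and Y (24.0%, 95% Wilson interval 22% to 26.1%). Among the pairs outside peaks, 105 of 1090 (9.63%, 8.02% to 11.5%) had a GRE, and over the whole MR CORT list the share was 16.9%. The odds ratio was 2.96 (2.35 to 3.73), with an adjusted p of 2.29e-22 by Fisher's exact test, two-sided and adjusted by Benjamini-Hochberg over 7 tests. Pairs outside peaks were chosen to lie off MR CORT peaks, so this test also sets DNA in peaks against DNA outside them. At the summits of all MR CORT peaks the share was 21.9%. In windows 1000 bp to each side of the footprints, 125 of 3292 (3.80%) had a GRE. The pairs outside peaks thus also exceeded the flanking windows. Intervals cover counting error only.

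The difference was wider for closer matches. With at most 1 mismatch, 30 footprints (1.82%), 2 pairs outside peaks (0.183%) and 0 of 3292 flanking windows held a GRE, for which the upper 95% Wilson limit is 0.117% and a limit of 3 counts 0.0911%. With at most 2 mismatches the counts were 131 (7.96%), 23 (2.11%) and 13 (0.395%). A single arm of the GRE, AGAACA or its complement TGTTCT, was centered within 20 bp of 12.9% of footprints, 7.06% of pairs outside peaks and 3.74% of flanking windows. These arms include those that belong to a full GRE. Other motifs were no more frequent in footprints than beside them within their intervals. AP-1 (TGACTCA or TGAGTCA) was at 1.09% of footprints and 0.942% of flanking windows, the GATA motif AGATAA, like the others on both strands, at 2.19% and 2.34%, and NF-1 (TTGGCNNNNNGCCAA, at most 2 mismatches) at 0.972% and 1.55%. At the summits of all MR CORT peaks, GREs within 20 bp were at 21.9%, close to the 24.0% of the footprints.

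Footprints with a GRE within 20 bp of the midpoint were shorter and nearer to the summit than those without. Their median size was 31 bp against 40 bp, and their midpoints lay a median of 11.5 bp from the summit against 21.5 bp. The share with a GRE was 31.8% of footprints of at most 10 bp, 30.3% of those of 11 to 20 bp, 22.8% of those of 41 to 60 bp and 13.6% of those of 61 to 100 bp. The window of 20 bp leaves out a GRE toward the end of a long footprint, which bears on these sizes and shares. The part of the window was not tested.

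**Figure D3:**
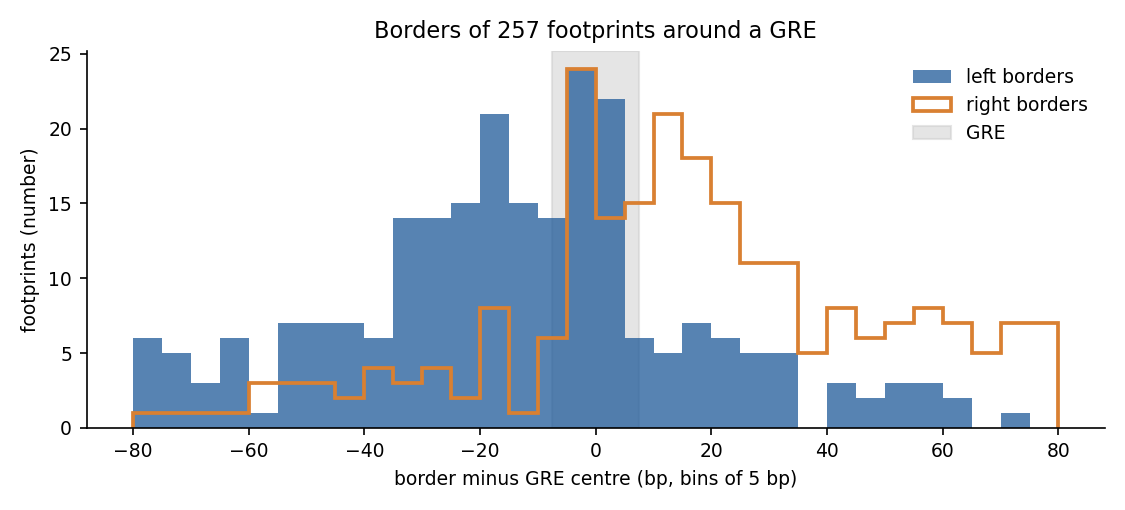
Number of footprints (y axis) by the position of their left and right borders relative to the center of a GRE (x axis, bp, bins of 5 bp). Drawn are the 257 footprints with a GRE of at most 2 mismatches within 100 bp, with borders up to 80 bp away. The GRE is the match with the fewest mismatches, or the nearest of equal matches. The gray band is the GRE, and left and right borders pile up inside it as well as outside it.

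The borders did not simply enclose the element. Of the 257 footprints that had a GRE of at most 2 mismatches within 100 bp of the midpoint, 69 (26.8%) spanned the whole GRE, and 92 (35.8%) had 1 border inside it. Another 8 lay within it, and 88 (34.2%) lay beside it. Where several GREs were in reach, the one with the fewest mismatches was taken, and the nearest among equals. The footprints that spanned the GRE had a median size of 55 bp, with left borders a median of 20.5 bp before its center and right borders 24.5 bp after it. Those with 1 border inside had a median size of 29 bp, and the inner border was a median of 2.5 bp from the center. Left borders fell within 7.5 bp of the center, which is inside the element, in 60 cases, and right borders in 55. The footprints at Hs3st5 and Per1 are of this kind, with the GRE at or near the right end of the printed line, and the Cep41 footprint spans its GRE. At Hs3st5 the footprint (chr10:36557467-36557498, 32 bp) ended 4 bp before the last base of the element, and at Cep41 it ran from 30664744 to 30664792.

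After washout, footprints were more often found again as MR peaks than as MR border pairs. An MR washout border pair overlapped 191 footprints (11.5%, 95% Wilson interval 10.1% to 13.2%) and 132 of the pairs outside peaks (11%, 9.34% to 12.9%). Of the whole MR CORT list, which includes 429 pairs on a CORT input pair, 18.9% was overlapped. The odds ratio was 1.06 (0.836 to 1.34), and by Fisher's exact test no difference was detected (adjusted p = 0.675). An MR washout peak overlapped 951 footprints (57.5%, 55.1% to 59.9%) against 31.1% of the whole list and 2.08% of the pairs outside peaks. Those pairs were chosen to lie off MR CORT peaks, so their low share is fixed in part by the choice. The washout lists held 1670 border pairs and 4885 peaks.

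The direction of that comparison of border pairs depended on which pairs were counted and on how a match was defined. With input pairs kept in, 14.0% of pairs in peaks and 24.3% of pairs outside met a washout pair (Fisher's exact test, odds ratio 0.507, adjusted p = 9.2e-14). When the midpoints had to lie within 10 bp, 4.96% of footprints and 6.82% of pairs outside peaks did (Fisher's exact test, odds ratio 0.712, adjusted p = 0.0483). On unplaced scaffolds lay 112 pairs outside peaks and 8 footprints, and a washout pair overlapped 55 (49.1%) of those 112. Without scaffolds the shares were 11.4% of footprints and 7.06% of pairs outside peaks (Fisher's exact test, odds ratio 1.70, adjusted p = 0.000223). On chromosomes 1, 2 and 10 to 19 they were 10.8% and 5.29% (Fisher's exact test, odds ratio 2.17, adjusted p = 4.99e-06), and on the other chromosomes 14.4% and 14.9% (Fisher's exact test, odds ratio 0.958, adjusted p = 0.896). A border pair of MR vehicle overlapped 115 pairs outside peaks (9.57%) and 28 footprints (1.69%), and 66 of those 115 also met a washout pair. Without pairs found in vehicle the shares were 10.6% and 6.07% (Fisher's exact test, odds ratio 1.83, adjusted p = 5.71e-05).

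**Figure D4:**
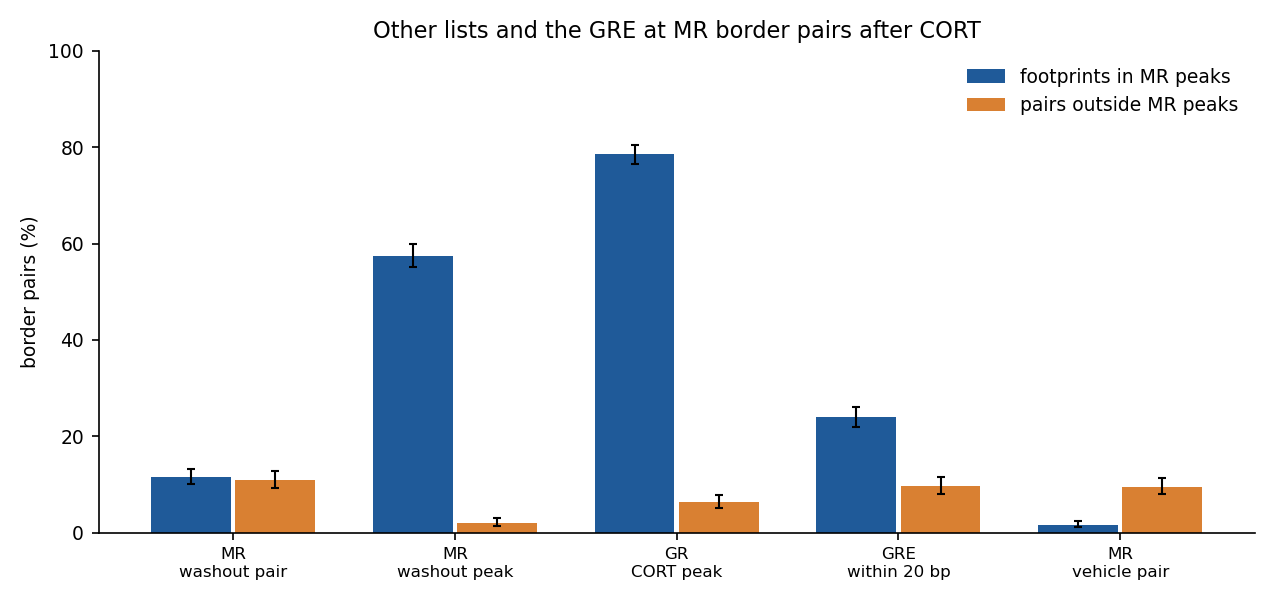
Percentage (y axis, %) of the 1654 footprints and of the 1202 MR border pairs outside peaks that were overlapped by a border pair or peak of another list, or had a GRE within 20 bp of the midpoint (1646 and 1090 pairs). Bars carry 95% Wilson intervals, and the groups are close for MR washout pairs (11.5% and 11%) and far apart for MR washout peaks (57.5% and 2.08%). Pairs outside peaks were chosen to lie off MR CORT peaks, which bears on their shares for peaks and for the GRE.

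Where a washout pair did meet a footprint, the borders were seldom the same. The midpoints were a median of 13.5 bp apart, and 81 of 191 (42.4%) were at most 10 bp apart. Both borders agreed within 2 bp at 7 footprints, 1 border did at 43 and neither did at 141. The Nfkbia footprint of 35 bp (chr12:55491961-55491995) met a washout pair of 42 bp that began 1 base later. The Ddc footprint of 48 bp (chr11:11844610-11844657) met one of 38 bp that lay wholly inside it. Seen from the other side, 480 MR washout pairs lay in MR washout peaks and off the washout input, 440 (91.7%) of them overlapped an MR CORT peak, and 157 (32.7%) overlapped a footprint.

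Footprints with a GRE met a washout pair more often than the others. A washout pair overlapped 60 of 395 footprints with a GRE (15.2%, 12% to 19.1%) and 128 of 1251 without (10.2%, 8.67% to 12%). By Fisher's exact test the odds ratio was 1.57 (1.13 to 2.19, adjusted p = 0.0118). With 1 footprint kept per peak the shares were 13.3% and 9.06% (Fisher's exact test, odds ratio 1.54, adjusted p = 0.0352). The same Fisher's exact test missed the threshold in 5 other settings. In the lower-p part of the list the shares were 8.64% and 7.0% (exact test, adjusted p = 0.461), and with input pairs kept in they were 15.8% and 12.4% (exact test, adjusted p = 0.106). Without chromosome 8 they were 14.2% and 10.3% (exact test, adjusted p = 0.053), with at most 2 mismatches 16.8% and 11% (exact test, adjusted p = 0.0853), and on chromosomes 3 to 9, X and Y 20.6% and 12.6% (exact test, adjusted p = 0.264). Footprints with a GRE also lay in stronger peaks, with a median −log10 p of 18.0 against 15.1, and the part of peak strength in the difference was not tested. An MR washout peak overlapped 68.4% of footprints with a GRE and 54.4% of those without.

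Finding a footprint again went with the strength of its peak. A washout pair overlapped 168 of the 1042 footprints in the strongest of the 5 groups of peaks (16.1%, 14.0% to 18.5%), and 2 of 57 in the weakest (3.51%, 0.968% to 11.9%). A washout peak overlapped 75.3% of footprints in the strongest group and between 22.6% and 30% of those in the other groups. Strength is a −log10 p and grows with sequencing depth, so it ranks peaks within the list only.

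Counted over peaks, those with a footprint were found again in MR washout far more often than those without a border pair. An MR washout peak overlapped 891 of 1460 peaks with a footprint (61%, 58.5% to 63.5%) and 2673 of 13121 peaks without a pair (20.4%, 19.7% to 21.1%). Over all MR CORT peaks the share was 24.6%. Fisher's exact test gave an odds ratio of 6.12 (5.46 to 6.86, adjusted p = 1.63e-218). Peaks with a footprint were stronger and wider, and within the 5 groups of −log10 p the Mantel-Haenszel odds ratio fell to 2.99. It was 2.99 also when the MR CORT summit had to lie inside the washout peak, which takes out the width of the CORT peak. In the weakest group, 18 of 58 peaks with a footprint and 198 of 2863 without a pair met a washout peak (31% and 6.92%), and in the strongest 80.3% and 52.5% did.

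GR peaks after CORT covered most of the footprints. A GR CORT peak overlapped 1299 footprints (78.5%, 76.5% to 80.4%), 43.9% of the whole MR list and 6.41% of the pairs outside peaks. The last share is likewise bound to the choice of pairs that lie off MR CORT peaks. Over peaks, 1152 of 1460 with a footprint (78.9%, 76.7% to 80.9%) and 5774 of 13121 without a pair (44.0%, 43.2% to 44.9%) met a GR CORT peak, against 47.6% of all MR CORT peaks. Fisher's exact test gave an odds ratio of 4.76 (4.18 to 5.42, adjusted p = 1.86e-147), which was 2.32 within the 5 groups of −log10 p. Of the footprints under a GR CORT peak, 869 of 1299 (66.9%) were also under an MR washout peak, and of the 355 without a GR peak, 82 (23.1%) were. Both overlaps were most frequent in the strongest MR peaks. In the weakest of the 5 groups a GR CORT peak overlapped 35.1% of footprints and an MR washout peak 28.1%. In the strongest group the shares were 92.2% and 75.3%. The part of peak strength in the split was not tested. The GR border pair list used here for CORT held 139 pairs with positions only, and 12 footprints met one. The study reports many more GR border pairs after CORT than that list holds. It therefore entered no comparison and says nothing of how often GR borders lie at footprints.

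**Figure D5:**
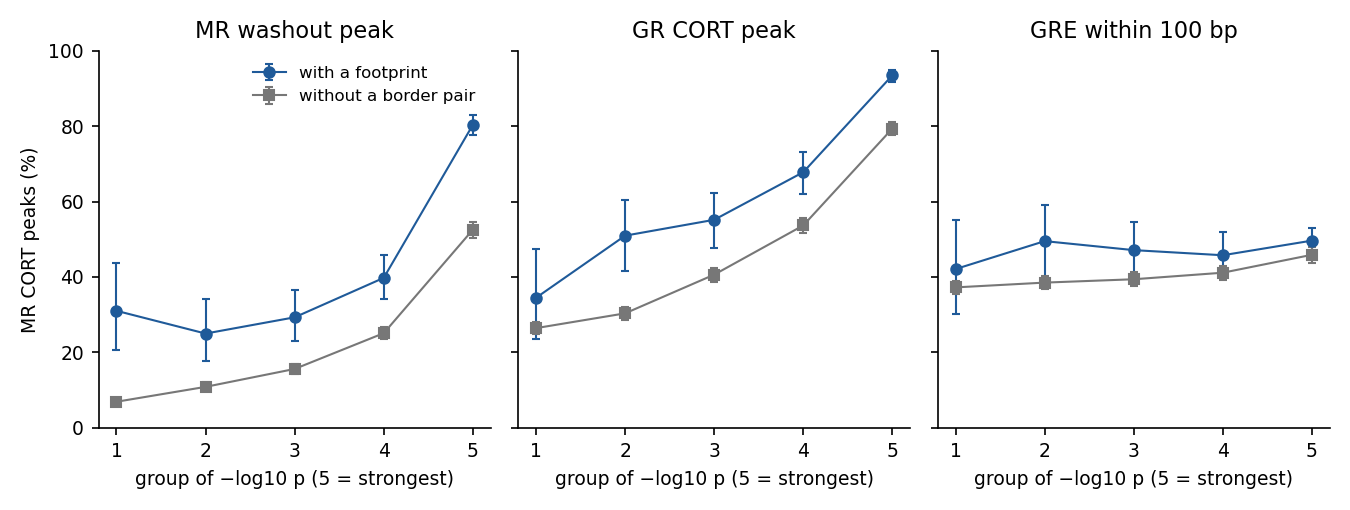
Percentage of MR CORT peaks (y axis, %) that met an MR washout peak (left), met a GR CORT peak (middle) or had a GRE within 100 bp of the summit (right), in 5 equal groups by −log10 p from weakest to strongest (x axis), for peaks with a footprint and peaks without a border pair. Bars are 95% Wilson intervals. Peaks with a footprint lie higher in every group (80.3% and 52.5% for washout peaks in the strongest). However, the intervals overlap for the GRE in every group and for GR CORT peaks in the weakest group.

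GREs near the summit differed less between peaks with and without a footprint. Within 100 bp of the summit, 702 of 1452 peaks with a footprint (48.3%, 45.8% to 50.9%) and 5242 of 13073 without a pair (40.1%, 39.3% to 40.9%) had a GRE, against 40.9% of all MR CORT peaks. Fisher's exact test gave an odds ratio of 1.40 (1.25 to 1.56, adjusted p = 3.41e-09), which was 1.23 within the 5 groups of −log10 p. On chromosomes 3 to 9, X and Y alone the shares were 43.4% and 39.7% and missed the threshold of 0.05 by Fisher's exact test (adjusted p = 0.34).

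Introns held most of the footprints, and their peaks lay in or near genes about as often as the other peaks. Of the 1646 on chromosomes 1 to 19, X and Y, 889 (54.0%) lay in introns of GENCODE M21 genes, 49 in coding exons, 41 in untranslated exons and 67 in exons of non-coding transcripts. Within 5 kb of a gene lay 242 (14.7%), and farther from every gene lay 358 (21.7%). Of peaks with a footprint, 1144 of 1452 (78.8%, 76.6% to 80.8%) were in or within 5 kb of a gene, and of peaks without a pair 10171 of 13073 (77.8%, 77.1% to 78.5%), against 77.9% of all MR CORT peaks. Fisher's exact test found no difference, with an odds ratio of 1.06 (0.928 to 1.21, adjusted p = 0.472). Within 1 kb of the start of a protein-coding gene lay 5.44% of peaks with a footprint and 5.24% of peaks without a pair.

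In or within 5 kb of a footprint were 860 protein-coding genes, 3.92% of the 21951 annotated, whereas 4500 (20.5%) had an MR CORT peak. Of these genes, 622 had 1 footprint, 159 had 2, 44 had 3, 22 had 4 and 13 had more. The most, 33, belonged to Gm20388, a read-through gene model of 4435 kb on chromosome 8 that covers many other genes, with 315 MR CORT peaks. Within it, Gse1, which encodes a coiled-coil protein found with histone-modifying complexes, had 13 footprints in 9 of its 89 peaks. Chromosome 8 was also the chromosome richest in input border pairs, with 9.97 per Mb against at most 2.86 on any other, and the part of this in the counts was not tested. Outside chromosome 8, Camk1d, a calcium-dependent protein kinase, had 7 footprints in 6 of its 24 peaks. Frmd4a, a scaffold protein of epithelial polarity, had 6 in 5 of its 36 peaks. There were 5 each at Slit3 and Unc5b, a ligand and a netrin receptor of axon guidance, and at the neuronal transcription factor gene Npas3. Several of these genes are long, with 587 kb for Slit3 and 823 kb for Npas3, but Unc5b, of 69.0 kb, had its 5 in 3 of 6 peaks and Lrrc20, of 107 kb, had 5 in 2 of 4 peaks. Overlapping footprints lay in tandem repeats at Lrrc20 (144 and 2 bp) and Camk1d (147 and 82 bp). The part of repeats in the counts was not tested.

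Fkbp5, Ddc, Syt2, Dusp4 and Sgk1 were examined individually in the same project, Fkbp5 for receptor binding and the others also for RNA. The study took the RNA genes from those bound by both receptors in these data, and displayed Fkbp5 for its binding. An MR CORT peak at each was thus given by the choice. Of these 5 genes, 4 had a footprint and all had an MR CORT peak. Fkbp5 (ENSMUSG00000024222, chr17:28399094-28517527), which encodes a co-chaperone that lowers the affinity of the receptors for steroid, had 3 footprints in separate peaks, of 15 peaks in all. The first, chr17:28420362-28420449, was intronic and lay beside an exact GRE whose center was 77.5 bp before its midpoint. Its peak had a −log10 p of 15.1, and a washout peak with 25.8 and a GR CORT peak with 9.43 lay over it. The second, chr17:28512972-28513015 in the strongest Fkbp5 peak (−log10 p 49.7), was intronic and 82.5 bp past the summit. The third, chr17:28518130-28518186, was within 5 kb of the gene. All 3 were covered by an MR washout peak, and no washout border pair met any of them.

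Ddc (ENSMUSG00000020182, chr11:11814101-11898144), which encodes the decarboxylase that makes dopamine and serotonin, had 4 intronic footprints in 2 of its 8 peaks. In the stronger peak (−log10 p 51.7) the footprint chr11:11844610-11844657 was centered 1.5 bp before the summit over a GRE with 3 mismatches, and the other, chr11:11844748-11844794, lay 136 bp past the summit. That other footprint had a GRE with 2 mismatches, centered 23.0 bp before its midpoint. In the weaker peak (−log10 p 19.6) the footprints measured 2 and 27 bp. A GRE with 2 mismatches was centered 88.5 and 69.0 bp past their midpoints. MR washout peaks lay over both Ddc peaks, with −log10 p of 47.3 and 19.3, and a washout border pair met only the first footprint.

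Syt2 (ENSMUSG00000026452, chr1:134646677-134762593), a calcium sensor of synaptic vesicle release, had 2 overlapping intronic footprints of 120 and 47 bp in 1 peak with a −log10 p of 24.5. A GR CORT peak with 23.4 lay over them and no MR washout peak did. No GRE was within 100 bp of either midpoint. Dusp4 (ENSMUSG00000031530, chr8:34807297-34819894), a phosphatase of MAP kinases, had 1 intronic footprint of 50 bp, chr8:34814749-34814798, in a peak with a −log10 p of 29.6. A washout peak with 11.2 lay over it. Sgk1, a kinase that raises sodium channel activity in kidney, had 2 MR CORT peaks and 0 footprints.

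Among 25 glucocorticoid-induced genes, 13 had an MR CORT peak and 4 (16.0%) a footprint. Per1, a clock gene, had 1 of 31 bp, chr11:69099390-69099420, which ended inside a GRE with 1 mismatch, and MR washout (−log10 p 16.2) and GR CORT (17.8) peaks covered it. Cdkn1a, the cell cycle inhibitor p21, had 1 of 44 bp, chr17:29094693-29094736, centered 3.5 bp before the summit of its peak (−log10 p 36.7) over a GRE with 3 mismatches. Nfkbia, the inhibitor of NF-κB, had 1 in a peak with a −log10 p of 44.5. Both of these met a washout border pair. Tgm2, a transglutaminase, had 4, and 11 peaks in all. The footprints lay in the stretch that is annotated to both Tgm2 and Rprd1b, and a washout pair met 2 of them. Tsc22d3, Zbtb16, Dusp1, Ddit4, Errfi1, Gadd45b, Sgk3, Per2 and Hif3a had a peak but no footprint.

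Of 22 sympathetic neuroblast genes, 9 had an MR CORT peak and 3 (13.6%) a footprint, which were Ddc, Slc18a1 and Sox11. The Slc18a1 footprint, chr8:69049565-69049608 in an intron of the vesicular monoamine transporter gene, shared 1 bp with its peak. The Sox11 footprint of 88 bp lay within 5 kb of this neuronal transcription factor gene in a weak peak (−log10 p 7.42). Th, Ret and Alk had 5, 5 and 8 peaks and 0 footprints. Of 13 chaperone genes of steroid receptors, 1 had a peak and footprints, which was Fkbp5. These shares stand beside 3.92% of all protein-coding genes with a footprint and 20.5% with a peak, and the lists were drawn up with earlier results known.

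The mouse genes of GR and MR, Nr3c1 and Nr3c2, had 7 footprints, 4 in the first and 3 in the second, all within coding sequence. The transfected plasmids carry the coding sequence of both receptors, and 6 of the 7 overlapped a border pair of MR vehicle. One of them had the strongest peak of the list, with a −log10 p of 69.9. Plasmid and genome cannot be told apart at these positions, and leaving them out changed no call of the 7 tests.

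Of the 30 footprints with a GRE of at most 1 mismatch, which lay in 28 peaks, 29 were on chromosomes 1, 2 and 10 to 19. Of the 1646 footprints on chromosomes 1 to 19, X and Y, 1368 lay there. An MR washout peak covered 25 of the 30 (83.3%), a GR CORT peak 25 (83.3%), and a washout border pair met 7 (23.3%). Over all 1654 footprints the shares were 57.5%, 78.5% and 11.5%, and the differences were not tested. Of the 4 with an exact GRE shown above, the intergenic footprint on chromosome 10 and the one in Cep41, a gene of the centrosome and cilium, met a washout border pair. The one at chr10:59974281-59974297, 17 bp long, met a washout pair of 18 bp from 59974279 to 59974296, and its washout peak had a −log10 p of 45.4. The footprint in Hs3st5, which modifies heparan sulfate, and the one in P4ha2, which hydroxylates collagen, met no washout pair but a washout peak with a −log10 p of 9.57 and 22.6. Those with 1 mismatch included footprints at Thra, the thyroid hormone receptor gene, at Pnmt, whose enzyme makes adrenaline from noradrenaline, at Lcn2, an iron-carrier protein of the acute phase, and at Stk39, a kinase that activates sodium chloride cotransport. Others were at Nmnat2, Hivep2, Tmcc3, Sec14l1, Nln, Rab3c, Ebi3, Itga8, Dab2ip, Ggt7 and nonagouti. Another 3 of the 30 were overlapping footprints of 61, 35 and 2 bp in 1 intergenic peak around chr15:84639607-84639667.

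The footprints with the lowest MACE p were not those of the strongest peaks. The 10 lowest values were all 0.000293 to 3 digits, the smallest that occurred in the list. Their peaks had a −log10 p between 8.6 and 28.3, and none met a washout border pair. They lay at Jmjd6, Prag1, Plekha4, Aagab, Rims4 and Myo1h and at 4 places with no protein-coding gene within 5 kb. An MR washout peak covered 3 of them, among them the Plekha4 footprint of 95 bp, whose GRE had 2 mismatches. The footprint at chr10:88260465-88260467 measured 3 bp and also had a GRE with 2 mismatches. Among the strongest peaks, chosen for display after the values were seen, the Agfg2 peak (−log10 p 55.5) held 2 overlapping intronic footprints of 28 and 27 bp that met a washout pair of 42 bp, and the Pmm1 peak (54.7) held 1 of 18 bp that met none.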

How the data were processed

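ChIP-nexus was performed on N2A cells with EGFP-GR and mCherry-MR. The authors trimmed low-quality bases, mapped the reads on GRCm38 with Bowtie2, dropped duplicates sharing a random barcode and ambiguous alignments, and combined 3 replicates. Peaks were called against input with MACS2 (2.1.1.20160309 in the submitters' processing notes), and border pairs with MACE. The deposited values are the −log10 p and −log10 q of each peak, the latter under a heading for fold enrichment, with a score derived from it, and the p-value of each border pair. The GR CORT pairs have positions only, and in the MR lists of border pairs the first pair stands on the header line and was kept. The samples and groups were taken from the labels.

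Overlap meant at least 1 bp. Genes came from GENCODE M21, in the gene or within 5 kb, and sequence from GRCm38, with pysam 0.24.0 and samtools 1.23.1. Shares were compared by two-sided Fisher's exact tests (scipy 1.17.1), Benjamini-Hochberg adjusted over 7 tests with a threshold of 0.05. Peaks with input-overlapping pairs only (57) were left out of tests on peaks. Strength was handled with Mantel-Haenszel odds ratios (statsmodels 0.14.6). The methods were tested on simulated data. The members and gene lists were chosen with earlier results of these data known. Genes were named from the 10 footprints with the lowest MACE p, the 5 peaks with the most footprints, footprints with a GRE of at most 1 mismatch, the genes with the most footprints, and the gene lists. Depth is not known from the lists, and it decides which weak peaks and borders are called.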

Additional observations from a re-analysis of the deposited data

Results flagged for a closer look

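Lists that no comparison used were flagged where they met footprints beyond the level of GR vehicle. A GR washout peak overlapped 93 of the 1654 footprints (5.62%, 95% Wilson interval 4.61% to 6.84%), against 4.54% of all MR CORT pairs and 0.666% of the pairs outside MR peaks. The choice of pairs that lie off MR CORT peaks bears on the last share. A GR vehicle peak overlapped 11 footprints, but that list held 64 peaks against 246 for GR washout, so the counts are not on equal terms. Of the 246 GR washout peaks, 70 (28.5%) held a footprint. Of the 93 footprints, 86 lay outside the exons of Nr3c1 and Nr3c2, 88 were also under an MR washout peak, 38 met an MR washout border pair and 26 had a GRE. The median −log10 p of the peaks around them was 27.9. A GR washout border pair overlapped 20 footprints (1.21%) and a GR vehicle border pair overlapped 11 (0.665%). Both shares were lower than in the pairs outside MR peaks (6.16% and 6.74%) and in all MR CORT pairs (9.92% and 10.6%). The difference was not tested. All MR CORT pairs include 429 on a CORT input pair, which the other groups leave out, and this bears on their share.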

How the results depend on the processing

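No paired analysis was possible because the replicates were combined and each condition has 1 list. The odds ratio for washout pairs, footprints against pairs outside peaks, was 1.06 in the main setting. It passed the threshold in the lower-p part of the list (3.14) and with input pairs of any treatment removed (1.36). It also did with pairs within 100 bp of input removed (1.73) and without MR vehicle pairs (1.83). Settings chosen after seeing the data that passed were chromosomes 1, 2 and 10 to 19 (2.17), no scaffolds (1.70) and GSB pairs only (1.61). With washout peaks in place of pairs it also passed (63.7). Pairs outside peaks were chosen to lie off MR CORT peaks, so that value was fixed in part by the choice. The odds ratio for washout pairs turned below 1 and passed the threshold with no removal of input pairs (0.507) and with midpoints within 10 bp (0.712). It was below 1 without passing the threshold with 1 pair a peak (0.926) and with overlap of at least 50% of the CORT pair (0.771). The same held on chromosomes 3 to 9, X and Y (0.958). The odds ratio for washout pairs, footprints with a GRE against those without (1.57), missed the threshold in the lower-p part of the list (1.26), with no removal of input pairs (1.32), without chromosome 8 (1.45), with at most 2 mismatches (1.64) and on chromosomes 3 to 9, X and Y (1.81). On those chromosomes the odds ratio for a GRE near the summit fell to 1.16. That for genes was 0.928 inside genes only and 0.972 for protein-coding genes. The number of footprints was 949 in the lower-p part of the list and 278 on chromosomes 3 to 9, X and Y. The settings by chromosome group and those that asked for the summit inside the other peak were likewise chosen after seeing the data. The causes of these changes were not tested, and the settings also differ in the number of pairs they keep. The odds ratios for washout peaks (2.99 to 8.41), GR peaks (2.29 to 6.61) and a GRE at footprints (2.65 to 4.01) kept their direction and call under all 19 alternatives run for each. For a GRE at footprints, the comparison was always with pairs chosen to lie off MR CORT peaks. The median size stayed between 36 and 38 bp and the median distance between 15.5 and 18.5 bp.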
